A study of Mus musculus with 12 samples.

Results

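Microglia are the resident macrophages of the brain, and the complement proteins that they and neighbouring glia secrete mark material for them to engulf. In the developing hippocampus this includes synapses: C1q, built from A, B and C chains, binds the target, the classical pathway then cleaves C4 and C3, and microglia recognise the deposited C3 fragments through complement receptor 3. Microglia depend for survival on the receptor CSF1R and its ligands, hear from neurons through fractalkine and its receptor CX3CR1, and owe their adult identity to transforming growth factor beta. The expression of 33 genes of this system, named from a list of microglia markers, complement genes and microglial signals, was examined at all of their probes in the table of signals before normalization. Of the 33 genes, 31 had at least 1 probe, 49 probes in all. No probe was listed for *C3*, the central complement component, or for *Cd68*, a lysosomal membrane protein of macrophages. The whole array carried 45281 probes.

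The RNA came from the hippocampus of male C57BL/6J mice aged 12 weeks, 6 of them offspring of dams that drank ethanol (EtOH) between 0.5 and 8.5 dpc and 6 offspring of dams given water (Control), with 1 MouseWG-6 v2.0 array per mouse. Drinking was voluntary, so the dose of each dam was not fixed. The labels do not give the litter of each mouse, so the p-values measure the spread between these mice only. The arrays lay on 2 chips, each with 3 ethanol-exposed mice (replicates 1 to 3 on chip 1, 4 to 6 on chip 2) and the 3 controls of the same numbers. Signals are given as log2 values after background correction and quantile normalization. Differences are those of ethanol-exposed minus control mice on this log2 scale, with limma's standard error and p. In bulk tissue a change in the number of microglia and a change in the RNA of each cell cannot be told apart.

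A probe was tested where its detection p, the chance that negative control beads reach its signal, was under 0.05 on at least 6 of 12 arrays. This held for 38 probes of 30 member genes and for 19288 probes of the array, and 18644 to 20268 probes were detected per mouse. *Itgam*, the alpha chain of complement receptor 3, had 1 probe, detected in 3 ethanol-exposed and 2 control mice, and was not tested. Its values were 4.79 to 5.49 in ethanol-exposed mice and 4.82 to 5.42 in controls. The other untested probes were second probes of *Aif1*, *C4b*, *P2ry12*, *Csf3r*, *Siglech*, *Cd53* and *Mpeg1*, and each of those genes kept at least 1 tested probe. The median array signal was 94.7 to 127.5 before normalization. Against it the tested members ran from a median raw signal of 118.45 at the *Tgfb1* probe to 6283.60 at the *Cx3cl1* probe.

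Adjusted p-values in limma were above 0.05 for every member probe and for all 19288 probes of the array (0% past it). At an unadjusted p under 0.05, 5 of 38 member probes (13.2%) were lower in ethanol-exposed mice and 0 were higher. Over all tested probes 3.08% were lower and 3.36% higher. The 5 probes belong to *Tgfb1*, *Fcrls* (2 probes), *C1qc* and *Siglech*. With 1 probe per gene, the brightest, 3 of 30 member genes were lower at that p (10%), against 2.71% of the 10835 genes tested. The median difference of the 30 genes was −0.07, with 20 negative and 10 positive (66.7% negative), against a median of 0.01 and 46.2% negative over all genes. The median residual SD between mice of 1 group was 0.20 for the members and 0.17 for all genes.

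**Figure D1:**
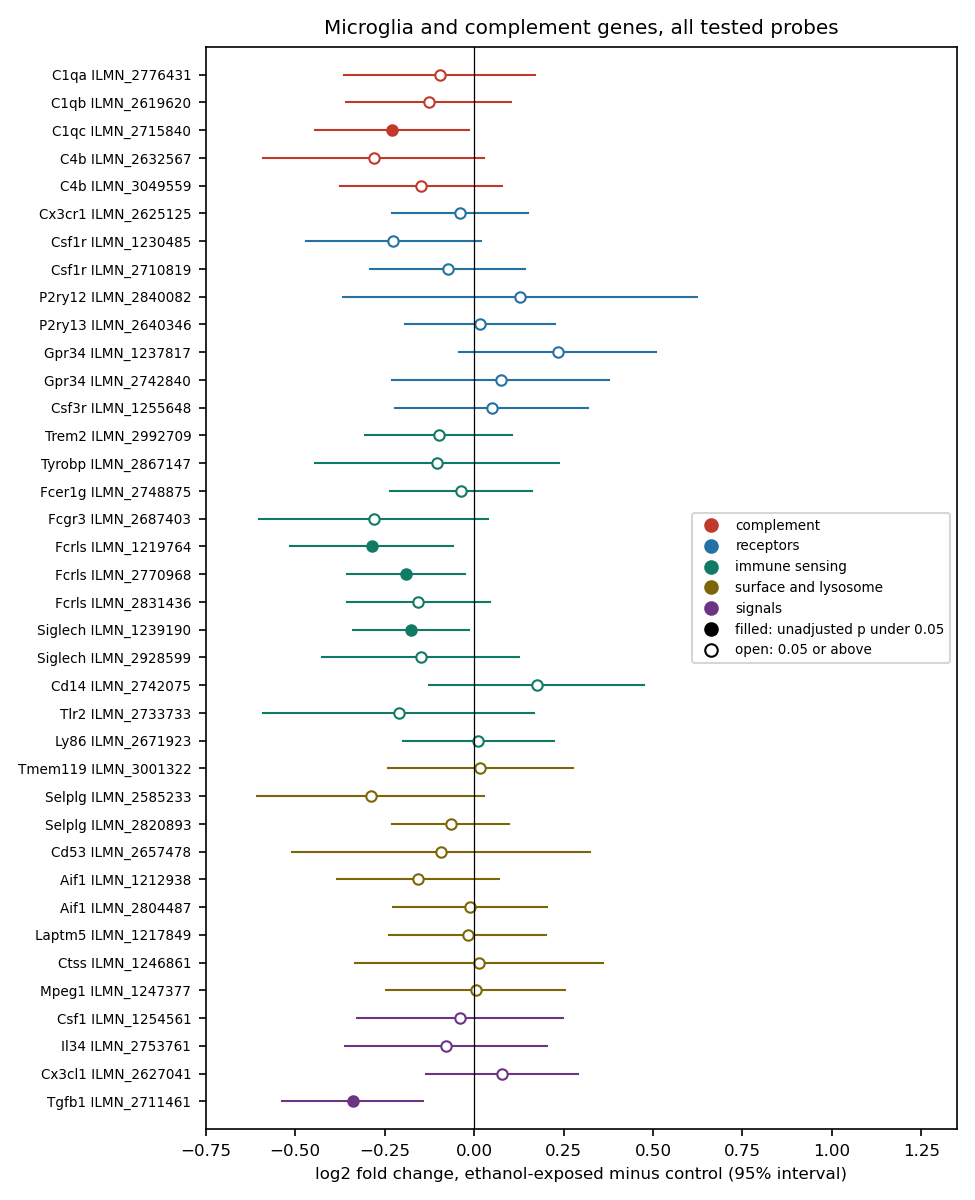
Log2 fold change of each tested probe of the 30 genes (points) with its 95% interval (lines), coloured by role, with filled points at an unadjusted p under 0.05. The 5 filled points, of *C1qc*, *Fcrls*, *Siglech* and *Tgfb1*, all lie below 0, and every other interval spans 0.

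The sequences just upstream of 4 genes described below are shown because *C1qb* and *C1qc* are neighbours with related products, and because *Fcrls* and *Tgfb1* gave the smallest p-values. They are the 250 bases before the RefSeq start in GRCm38.p6, written 5′ to 3′ on the strand of the gene. Capitals mark GAGGAA, the core letters bound by PU.1 (*Spi1*), a transcription factor that macrophages and microglia need, or its reverse complement TTCCTC.
*C1qb* (chr4:136886201-136886450, minus strand): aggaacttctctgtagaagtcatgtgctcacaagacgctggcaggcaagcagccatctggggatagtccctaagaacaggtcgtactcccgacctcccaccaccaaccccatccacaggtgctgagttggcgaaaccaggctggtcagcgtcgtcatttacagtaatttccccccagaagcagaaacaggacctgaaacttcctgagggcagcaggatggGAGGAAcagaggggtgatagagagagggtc
*C1qc* (chr4:136892915-136893164, minus strand): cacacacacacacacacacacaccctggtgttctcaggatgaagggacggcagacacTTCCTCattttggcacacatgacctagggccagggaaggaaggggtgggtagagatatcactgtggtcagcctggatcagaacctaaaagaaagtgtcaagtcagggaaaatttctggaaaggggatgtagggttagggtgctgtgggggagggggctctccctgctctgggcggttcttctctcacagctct
*Fcrls* (chr3:87263525-87263774, minus strand): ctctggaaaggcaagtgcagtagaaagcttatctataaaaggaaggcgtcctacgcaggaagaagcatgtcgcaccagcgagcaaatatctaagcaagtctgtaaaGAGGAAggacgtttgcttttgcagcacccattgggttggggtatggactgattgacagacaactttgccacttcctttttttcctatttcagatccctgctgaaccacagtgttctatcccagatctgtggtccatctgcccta
*Tgfb1* (chr7:25686752-25687001, plus strand): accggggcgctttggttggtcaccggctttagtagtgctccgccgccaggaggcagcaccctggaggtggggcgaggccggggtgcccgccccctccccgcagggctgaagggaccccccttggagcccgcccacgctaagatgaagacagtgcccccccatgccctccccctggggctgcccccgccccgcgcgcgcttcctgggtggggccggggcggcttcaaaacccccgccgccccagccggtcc
The core began 30 bases before the start in *C1qb*, 193 bases before it in *C1qc* (reverse complement) and 144 bases before it in *Fcrls*, and these letters are not in the *Tgfb1* window. RefSeq promoters were matched for 24 of the 33 members. GAGGAA, searched on both strands of the upstream 250 bases, was in 14 of 24 (58.3%) and in 25.9% of 27025 genes. The longer form GAGGAAGT, which contains the first, was in 1 of 24 (*C1qc*, 4.17%) and in 2.79% of all genes. A match is a description of the letters and not a binding site.

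Among the complement genes, C1q had 1 chain with an unadjusted p under 0.05, and its other chains had smaller differences of the same sign. *C1qc*, the C chain, had values of 10.00, 10.04, 10.17, 9.83, 9.96 and 9.74 in ethanol-exposed mice 1 to 6 and of 9.96, 10.25, 10.50, 10.22, 10.14 and 10.04 in controls 1 to 6. All 6 ethanol-exposed mice lay below the control median of 10.18, yet the groups overlapped, with controls 1, 5 and 6 below ethanol-exposed mouse 3. The difference was −0.23 (standard error 0.10, unadjusted p = 0.0383, adjusted p = 0.759 in limma, two-sided exact permutation p = 0.0476). It was −0.17 on chip 1 and −0.29 on chip 2. The unadjusted p rose above 0.05 without any 1 of ethanol-exposed mice 4, 5 and 6 or of controls 2, 3 and 4, to at most 0.0960 in limma, where the difference was −0.17.

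*C1qb*, the B chain, ranged from 10.18 to 10.65 (median 10.41) in ethanol-exposed mice and from 10.27 to 10.88 (median 10.52) in controls. The groups overlapped over most of their range, with a difference of −0.13 (standard error 0.11, unadjusted p = 0.258 in limma). *C1qa*, the A chain, ranged from 7.82 to 8.47 (median 8.35) in ethanol-exposed mice and from 8.14 to 8.70 (median 8.31) in controls. Its difference of −0.10 (standard error 0.12, unadjusted p = 0.454 in limma) rested on ethanol-exposed mouse 3, the lowest of all 12 mice, and was −0.01 without it. The genes lie side by side on chromosome 4 in the order *C1qa*, *C1qc*, *C1qb*, with no other coding gene between neighbours.

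Across the 12 mice *C1qb* and *C1qc* had a Pearson r of 0.60 (permutation p = 0.0376, adjusted p = 0.338 over 9 pairs) and a Spearman rho of 0.58 (p = 0.0514, adjusted p = 0.317). Without the 2 mice farthest from the *C1qb* median, r was 0.48, and it was 0.46 within chip 1 and 0.53 within chip 2. It was 0.86 in ethanol-exposed mice and 0.31 in controls, and 0.22 over 12 mice once the mean of each group on each chip was taken out. For *C1qa* r was −0.09 with *C1qb* (permutation p = 0.771) and −0.12 with *C1qc* (permutation p = 0.713). The corresponding rho values were −0.23 (permutation p = 0.470) and −0.08 (permutation p = 0.817). Without the 2 mice farthest from the *C1qa* median these r values were 0.23 and −0.25. Within chip 1 and chip 2, r of *C1qa* with *C1qb* was 0.32 and 0.57, and with *C1qc* it was −0.11 and 0.37. With the mean of each group on each chip taken out, *C1qa* and *C1qb* had an r of 0.32. The 9 pairs were chosen because their proteins bind each other or act in 1 axis, and none passed an adjusted p of 0.05.

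*C4b*, the classical pathway component cleaved after C1, was tested at 2 probes. At the brighter, ILMN_3049559, the values ran from 8.20 to 8.69 (median 8.61) in ethanol-exposed mice and from 8.40 to 8.84 (median 8.74) in controls. All 6 ethanol-exposed mice lay below the control median, and the difference was −0.15 (standard error 0.11, unadjusted p = 0.184 in limma). The dimmer probe, ILMN_2632567, was detected in 2 ethanol-exposed and 5 control mice and differed by −0.28 (standard error 0.14, unadjusted p = 0.0703 in limma). It entered the test mainly through the controls, so this value is weakly grounded, and without background correction it was −0.11. *C4a* is a near-identical gene and differed by −0.15 at its probe. The probe sequences were not compared, so whether the probes share signal of the 2 genes is not known and the values of both are uncertain. All 4 complement genes tested were negative (46.2% of all genes were), with a median of −0.14.

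**Figure D2:**
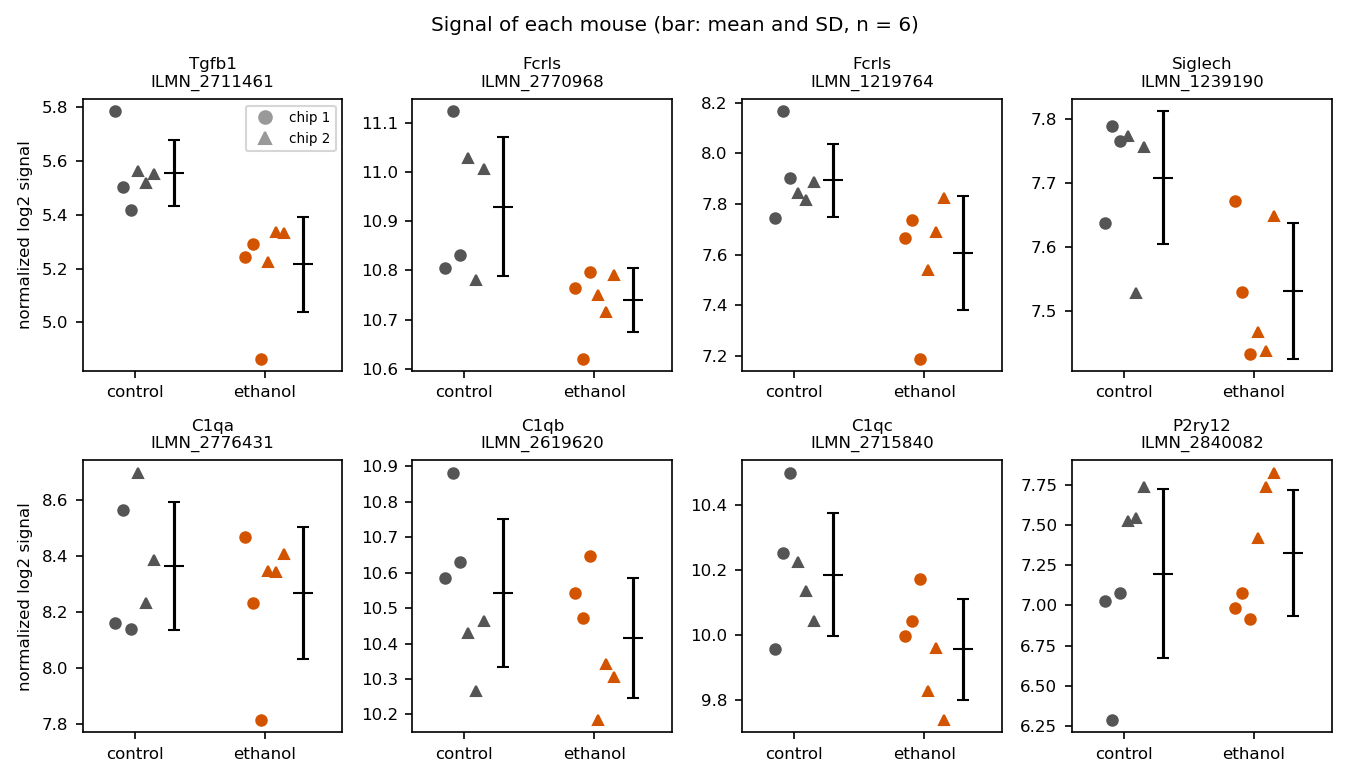
Normalized log2 signal of each mouse for 8 probes, controls in grey and ethanol-exposed mice in orange, with circles for chip 1, triangles for chip 2 and bars for the mean and SD of 6 mice. The groups separate for *Tgfb1*, overlap in part for *Fcrls*, *Siglech* and *C1qc*, and overlap widely for *C1qa* and *C1qb*, while for *P2ry12* the chips separate.

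The smallest p of the set was at *Tgfb1*, 1 of the 4 genes grouped as signals. Bulk tissue does not tell which cells made its RNA. *Tgfb1*, the growth factor that holds microglia in their adult state, had values of 5.24, 5.29, 4.87, 5.23, 5.34 and 5.33 in ethanol-exposed mice 1 to 6. In controls 1 to 6 they were 5.78, 5.50, 5.42, 5.56, 5.52 and 5.55. Every ethanol-exposed mouse lay below every control, which 0.14% of all tested probes also showed in this direction. The difference was −0.34 (standard error 0.09, unadjusted p = 0.00239, adjusted p = 0.718 in limma). The two-sided exact permutation test gave p = 0.00216, the smallest that groups of 6 and 6 allow. The chips gave −0.43 (chip 1) and −0.24 (chip 2), and the unadjusted p in limma stayed at or below 0.00658 when each mouse was left out in turn. The probe is dim. It was detected in 4 of 6 ethanol-exposed and 6 of 6 control mice, and without background correction the difference was −0.13 (unadjusted p = 0.0336 in limma). With the intensity trend in the spread its unadjusted p was 0.0289.

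The other 3 signals differed by less than their error. *Il34*, the neuronal ligand of CSF1R, ranged from 8.55 to 9.05 (median 8.68) in ethanol-exposed mice and from 8.35 to 9.18 (median 8.81) in controls, a difference of −0.08 (standard error 0.13, unadjusted p = 0.566 in limma). *Csf1*, the other ligand, ranged from 5.91 to 6.56 (median 6.23) and from 5.97 to 6.53 (median 6.32), a difference of −0.04 (standard error 0.13, unadjusted p = 0.772 in limma). Their ranges lay almost on top of each other. *Cx3cl1*, which encodes fractalkine, ranged from 12.53 to 12.80 (median 12.62) in ethanol-exposed mice and from 12.13 to 12.70 (median 12.63) in controls, a difference of 0.08 (standard error 0.10, unadjusted p = 0.440 in limma). That difference was −0.01 without control mouse 3, the lowest of the 12.

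The median difference of the 6 receptor genes tested was 0.03. Negative were 2 of them, *Cx3cr1* and *Csf1r*, and 4 were positive (46.2% of all genes were negative). *Cx3cr1*, the fractalkine receptor, ranged from 9.43 to 9.89 (median 9.61) in ethanol-exposed mice and from 9.50 to 9.80 (median 9.71) in controls, a difference of −0.04 (standard error 0.09, unadjusted p = 0.664 in limma, 95% interval −0.23 to 0.15). At its brighter probe, ILMN_2710819, *Csf1r* ranged from 8.66 to 9.11 (median 8.77) and from 8.69 to 9.16 (median 8.88), a difference of −0.07 (standard error 0.10, unadjusted p = 0.480 in limma). The groups overlapped widely for both genes. The second *Csf1r* probe, ILMN_1230485, ranged from 6.56 to 7.34 (median 6.87) in ethanol-exposed mice and from 6.99 to 7.29 (median 7.12) in controls, a difference of −0.23 (standard error 0.11, unadjusted p = 0.0674 in limma). All of it came from chip 2 (−0.47), where the 3 ethanol-exposed mice lay below the 3 controls, while chip 1 gave 0.02.

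*P2ry12*, the ADP receptor that guides microglial processes to injury, ranged from 6.92 to 7.82 (median 7.25) in ethanol-exposed mice and from 6.29 to 7.73 (median 7.30) in controls, a difference of 0.13 (standard error 0.23, unadjusted p = 0.588 in limma). Its residual SD of 0.46 was the widest of the 30 genes. *P2ry13*, a related ADP receptor next to it on chromosome 3, differed by 0.02 (standard error 0.10). *Gpr34*, a lysophosphatidylserine receptor, differed by 0.23 at ILMN_1237817 (standard error 0.13, unadjusted p = 0.0895 in limma) and by 0.07 at ILMN_2742840 (standard error 0.14). *Csf3r*, the receptor of granulocyte colony-stimulating factor, differed by 0.05 at its 1 tested probe, and its other 4 probes were detected in 0 mice.

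Genes of immune sensing had 12 tested probes, of which 3 had an unadjusted p under 0.05, 2 of them probes of *Fcrls* (3.08% of all probes were lower at that p). Of the 9 genes 7 were negative (46.2% of all genes), with a median of −0.10. *Fcrls*, an Fc receptor-like scavenger receptor used in mice as a microglia marker, was tested at 3 probes. At the brightest, ILMN_2770968, ethanol-exposed mice 1 to 6 had 10.76, 10.62, 10.80, 10.75, 10.72 and 10.79, and controls 1 to 6 had 10.80, 11.12, 10.83, 11.03, 10.78 and 11.01. All 6 ethanol-exposed mice lay below the control median of 10.92, and controls 1 and 5 lay near the upper ethanol-exposed values. The difference was −0.19 (standard error 0.08, unadjusted p = 0.0269, adjusted p = 0.731 in limma, exact permutation p = 0.00866), with −0.19 on each chip. Leaving out ethanol-exposed mouse 2 or control 2, 4 or 6 brought the unadjusted p in limma to between 0.0556 and 0.0649, and median scaling brought it to 0.0663.

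At ILMN_1219764 *Fcrls* ranged from 7.19 to 7.82 (median 7.68) in ethanol-exposed mice and from 7.74 to 8.17 (median 7.87) in controls. Again 6 of 6 ethanol-exposed mice lay below the control median. The difference was −0.29 (standard error 0.11, unadjusted p = 0.0176, adjusted p = 0.720 in limma, exact permutation p = 0.00649), with −0.41 on chip 1 and −0.16 on chip 2, and the unadjusted p stayed under 0.05 without any 1 mouse. The third probe, ILMN_2831436, differed by −0.16 (standard error 0.09, unadjusted p = 0.115 in limma) with 5 of 6 mice below the control median. The 3 probes measure the same gene in the same mice and are not independent of each other.

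*Siglech*, a sialic acid-binding lectin of microglia and plasmacytoid dendritic cells, had at ILMN_1239190 values of 7.67, 7.53, 7.43, 7.47, 7.44 and 7.65 in ethanol-exposed mice 1 to 6. In controls 1 to 6 they were 7.64, 7.79, 7.77, 7.77, 7.53 and 7.76. Controls 1 and 5 lay within the ethanol-exposed range and the other 4 above it. The difference was −0.18 (standard error 0.08, unadjusted p = 0.0340, adjusted p = 0.756 in limma, exact permutation p = 0.0281), with −0.18 on chip 1 and −0.17 on chip 2. The unadjusted p passed 0.05 without any 1 of 8 mice (ethanol-exposed 2, 3, 4 or 5 and control 2, 3, 4 or 6), to at most 0.0719 in limma. It was also above 0.05 without background correction (0.0518), on the authors' table (0.0515) and with the intensity trend (0.0753), and 10 alternatives kept it under 0.05. The other tested probe, ILMN_2928599, ranged from 7.26 to 8.13 (median 7.51) in ethanol-exposed mice and from 7.58 to 8.00 (median 7.72) in controls, a difference of −0.15 (standard error 0.13, unadjusted p = 0.266 in limma).

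*Trem2*, a lipid-sensing receptor, ranged from 8.16 to 8.66 (median 8.35) in ethanol-exposed mice and from 8.30 to 8.63 (median 8.48) in controls, a difference of −0.10 (standard error 0.10, unadjusted p = 0.316 in limma). *Tyrobp*, the adaptor through which it signals, ranged from 7.10 to 7.77 (median 7.47) and from 6.89 to 8.02 (median 7.59), also a difference of −0.10 (standard error 0.16, unadjusted p = 0.527 in limma). For both, controls reached as high as or higher than every ethanol-exposed mouse except *Trem2* in ethanol-exposed mouse 6. *Fcgr3*, a low-affinity receptor for IgG, differed by −0.28 (standard error 0.15, unadjusted p = 0.0816 in limma), with 5 of 6 ethanol-exposed mice below the control median. *Fcer1g*, the signalling chain of Fc receptors, differed by −0.04 (standard error 0.09). The pattern-recognition receptor *Tlr2* differed by −0.21 (standard error 0.18), its co-receptor *Cd14* by 0.18 (standard error 0.14), and *Ly86*, a partner of a Toll-like receptor relative, by 0.01 (standard error 0.10).

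The surface and lysosomal markers were close to 0, with a median of −0.02 and 4 of 7 negative. *Tmem119*, a membrane protein that marks microglia apart from other macrophages, ranged from 7.95 to 8.26 (median 8.04) in ethanol-exposed mice and from 7.83 to 8.63 (median 7.96) in controls, a difference of 0.02 (standard error 0.12, unadjusted p = 0.887 in limma, 95% interval −0.24 to 0.28). *Aif1*, which encodes IBA1, differed by −0.16 at ILMN_1212938 (standard error 0.11, unadjusted p = 0.158 in limma) and by −0.01 at ILMN_2804487 (standard error 0.10). *Selplg*, the P-selectin ligand, differed by −0.07 at its brighter probe (standard error 0.08). At its dimmer probe, ILMN_2585233, it ranged from 6.64 to 7.63 (median 7.11) in ethanol-exposed mice and from 7.22 to 7.58 (median 7.53) in controls, a difference of −0.29 (standard error 0.15, unadjusted p = 0.0715 in limma), with −0.48 on chip 1 and −0.09 on chip 2. The lysosomal genes *Laptm5* (−0.02, standard error 0.10) and *Ctss*, which encodes cathepsin S (0.01, standard error 0.16), the pore-forming protein gene *Mpeg1* (0.00, standard error 0.12) and the tetraspanin gene *Cd53* (−0.09, standard error 0.19) differed by less than their standard errors.

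Each chip held 3 mice of each group, so the comparison could be read on each. The median difference of the 30 genes was −0.08 on chip 1 and −0.07 on chip 2. On both chips 15 of 30 genes (50%) were negative, 4 were positive on both and 11 changed sign, against 23.7% of all tested genes negative on both. *Tgfb1*, *C1qc*, *Fcrls* and *Fcgr3* were among the 15. The chips divide the same mice that gave these differences, so this is no separate support for them. At 6 of 38 member probes all 6 ethanol-exposed mice lay below the control median, against 5.57% of all tested probes. These were the 5 probes named above and the brighter probe of *C4b*. The difference between the chips in the ethanol effect had an unadjusted p under 0.05 at 2 of 38 member probes, against 6.27% of all tested probes. They were *Csf1r* ILMN_1230485 (0.02 on chip 1 and −0.47 on chip 2, unadjusted p = 0.0241, adjusted p = 0.770 in the limma fit over 12 mice) and *Gpr34* ILMN_1237817 (0.50 and −0.03, unadjusted p = 0.0312, adjusted p = 0.789).

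**Figure D3:**
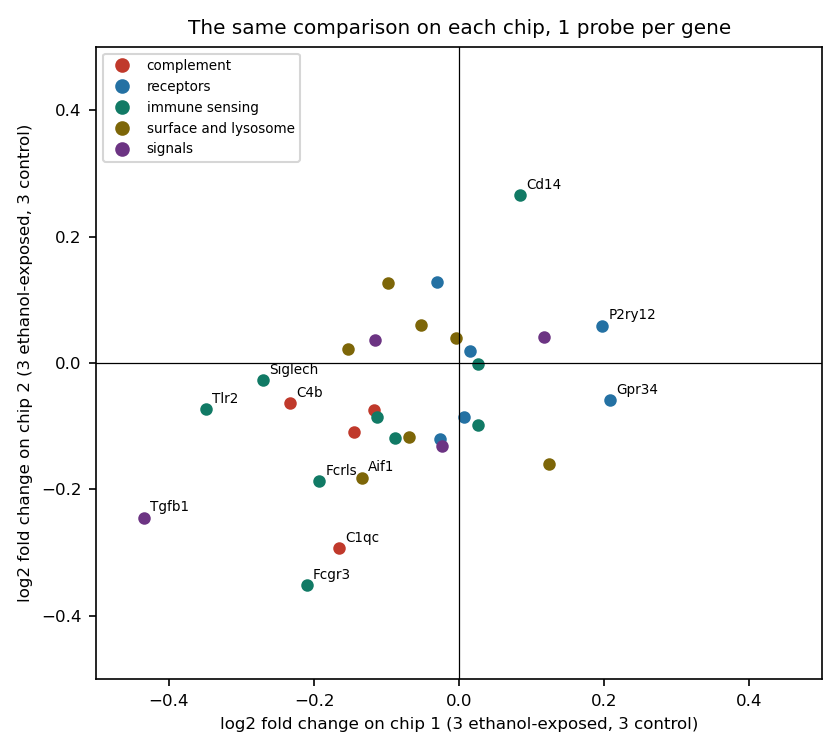
Log2 fold change of 30 genes, 1 probe each, on chip 1 (horizontal) and chip 2 (vertical), coloured by role. The lower left field holds 15 genes, with *Tgfb1* and *Fcgr3* farthest from the origin, and the upper right field holds 4.

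Several members differed more between the chips than between the groups. *P2ry12* had a mean of 6.89 on chip 1 and 7.63 on chip 2, a difference of 0.74 (standard error 0.13, adjusted p = 0.0277 in limma, in a fit with group). On chip 1 the 6 mice had values from 6.29 to 7.08 and on chip 2 from 7.42 to 7.82, without overlap. It was the 1 member probe past an adjusted p of 0.05 between chips, where 0.446% of all tested probes were, and it did not pass among controls alone. At an unadjusted p under 0.05, 6 member probes were higher on chip 2 (9.53% of all tested probes) and 1 was lower (5.6%). The higher ones were *P2ry12*, *Cd53* (0.45, standard error 0.16), *Selplg* ILMN_2585233 (0.39, standard error 0.11), *Siglech* ILMN_2928599 (0.28, standard error 0.11), *Mpeg1* (0.25, standard error 0.10) and *Csf1r* ILMN_2710819 (0.23, standard error 0.08). *Cd53* ranged from 5.74 to 6.68 (median 6.31) in ethanol-exposed mice and from 5.68 to 6.87 (median 6.38) in controls. *Mpeg1* ranged from 7.67 to 8.14 (median 7.86) and from 7.56 to 8.16 (median 7.88). The lower one was *C1qb*, with a mean of 10.63 on chip 1 and 10.33 on chip 2 (−0.29, standard error 0.07, unadjusted p = 0.00165, adjusted p = 0.0937 in limma). The chip differences of the 5 ethanol probes were −0.17 at *C1qc* (unadjusted p = 0.0938) and from −0.04 to 0.07 at the others.

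The members were measured in the same 12 mice, so counts of them are not counts of independent genes. Over the 26 genes other than the signals, the mean deviation from each gene's own mean was lowest in control mouse 1 (−0.16) and ethanol-exposed mouse 2 (−0.12) and highest in ethanol-exposed mouse 6 (0.14) and control mouse 4 (0.12). It was negative in 5 of 6 ethanol-exposed mice and in 2 of 6 controls. Below their own mean lay 22 of 26 genes in ethanol-exposed mouse 2 and 20 in control mouse 1. The count was 7 in ethanol-exposed mouse 6 and 8 in control mouse 4. Among the 325 pairs of these genes the median r over 12 mice, after group means were taken out, was 0.16, with 68.6% positive. Pairs of other genes were not examined, so this cannot be read as particular to the members. The mice share 2 chips, and with the mean of each group on each chip taken out the median was 0.20. The highest was *P2ry13* with *Fcer1g* (0.89, and 0.91 within chips) and the lowest *C1qb* with *P2ry12* (−0.86, and −0.46 within chips), both described without a test.

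**Figure D4:**
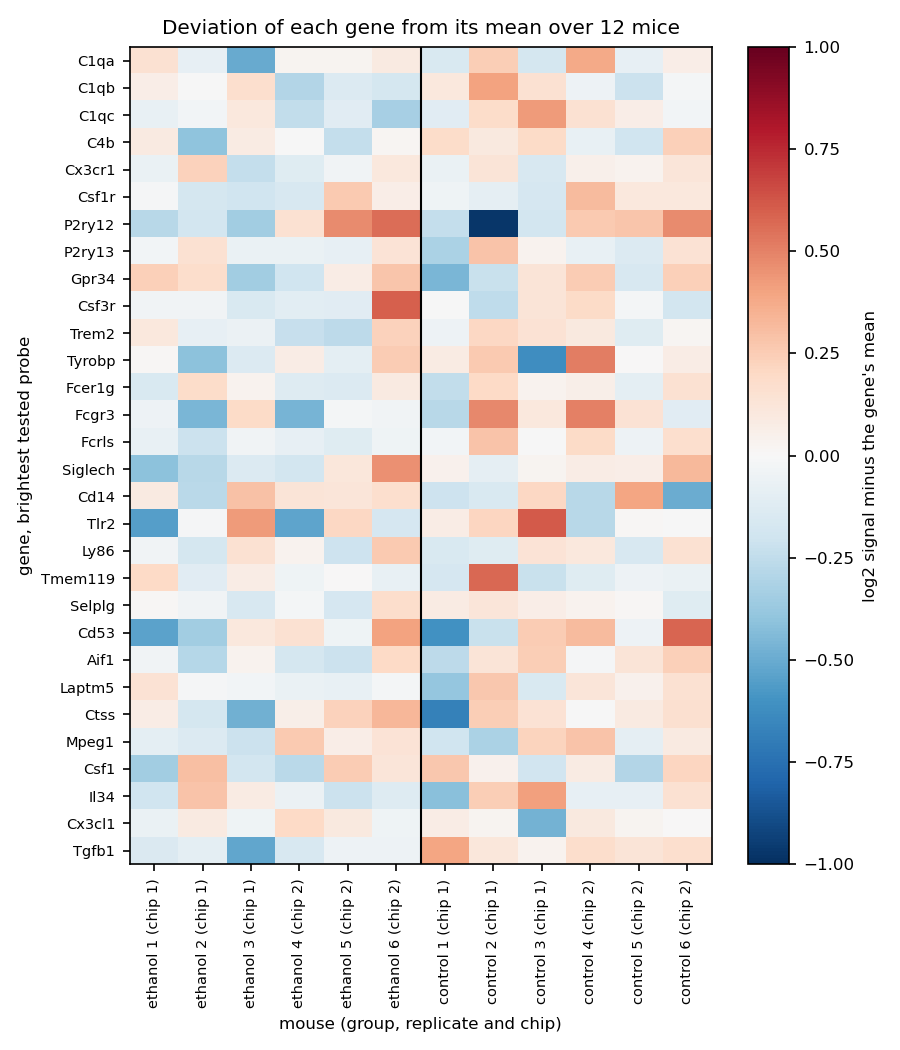
Deviation of each gene (rows, brightest tested probe) from its mean over 12 mice (columns), on the log2 scale, with red above and blue below the mean. Ethanol-exposed mouse 2 is mostly blue and ethanol-exposed mouse 6 mostly red, and *P2ry12* is blue on chip 1 and red on chip 2 in both groups.

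Of the remaining pairs, *Il34* and *Csf1r* had an r of −0.46 (permutation p = 0.134) and a rho of −0.55 (permutation p = 0.0704), and r was −0.23 without the 2 mice farthest from the *Il34* median. *Cx3cl1* and *Cx3cr1* had an r of 0.33 (permutation p = 0.304) and a rho of 0.26 (permutation p = 0.420). Within chip 1 that r was 0.53 and within chip 2 −0.91 (exact permutation p = 0.0125 before adjustment), so its sign differed between the chips. *Csf1* and *Csf1r*, *Trem2* and *Tyrobp*, *Fcer1g* and *Fcgr3*, and *Tgfb1* and *P2ry12* had r values of 0.29, 0.23, 0.30 and 0.09 (permutation p = 0.348, 0.469, 0.335 and 0.770).

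Other genes of microglia also had a negative median. Of 27 further microglial genes 17 were tested, with a median of −0.12, 11 negative and 6 positive. At an unadjusted p under 0.05, which 2.71% of all genes passed as lower, 1 was lower and 0 were higher. It was *Cd52*, a small glycoprotein of leucocyte membranes (−0.43, standard error 0.14, unadjusted p = 0.00728, adjusted p = 0.718 in limma), with −0.41 on chip 1 and −0.46 on chip 2. *Olfml3* differed by −0.15 (standard error 0.09), with −0.11 on chip 1 and −0.19 on chip 2. The phagocytic receptor gene *Mertk* differed by −0.23 (standard error 0.13) and the integrin gene *Itgb5* by −0.18 (standard error 0.11). Both differences came mostly from chip 1 (−0.41 and −0.36), with −0.05 and −0.0003 on chip 2. The median of the 17 genes was −0.08 on chip 1 and −0.04 on chip 2. *Spi1*, which encodes PU.1, was named for the motif above after its values were seen. It differed by −0.22 (standard error 0.14, unadjusted p = 0.140 in limma), and a link between it and the motif was not tested. Of 19 genes of microglial activation 9 were tested, 6 negative and 3 positive, with a median of −0.14 (−0.12 on chip 1 and −0.06 on chip 2). At an unadjusted p under 0.05, 2 were lower and 0 higher, beside the same 2.71%. The 2 were *Apoe* (−0.22, standard error 0.08, unadjusted p = 0.0111 in limma; −0.34 on chip 1 and −0.11 on chip 2) and *Cd9* (−0.25, standard error 0.09, unadjusted p = 0.0162 in limma; −0.37 and −0.14), both also made by other brain cells. Next by p were *Lgals3* (−0.60, standard error 0.28, unadjusted p = 0.0513 in limma; −1.43 and 0.24) and *Ctsb* (0.17, standard error 0.09, unadjusted p = 0.066 in limma; 0.11 and 0.23).

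The median of the other complement genes lay near 0. Of 29 listed, 11 were tested, with a median of 0.03, 5 negative and none past an unadjusted p of 0.05. The smallest p-values were those of *Cd59a*, a membrane inhibitor of the terminal pathway (−0.58, standard error 0.32, unadjusted p = 0.0866 in limma; −1.23 on chip 1 and 0.06 on chip 2), and *C4a*. Of 15 receptors and partners of the signals 10 were tested, with a median of 0.04, 3 negative, 7 positive and none past that p. Among them *Nrros*, which presents latent TGF-beta on microglia, differed by −0.21 (standard error 0.13, unadjusted p = 0.127 in limma), with −0.30 on chip 1 and −0.13 on chip 2. Next by p were *Smad3* (0.14, standard error 0.09, unadjusted p = 0.169 in limma) and *Csf2ra* (0.19, standard error 0.15, unadjusted p = 0.218 in limma), both positive.

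Markers of other cells were read in the same way, and none of these genes passed an adjusted p of 0.05 in limma. All 8 tested choroid plexus genes of 19 were negative and 0 passed an unadjusted p of 0.05 (median −0.76; −1.76 on chip 1 and 0.16 on chip 2), with a mean log2 signal per mouse of 6.34 to 8.94 in ethanol-exposed mice and 6.48 to 10.38 in controls. Of 8 tested ependymal genes of 12, 7 were negative and 5 lower at an unadjusted p under 0.05, beside 2.71% of all genes (median −0.71; −1.33 on chip 1 and −0.11 on chip 2), with 6.35 to 6.94 and 6.63 to 8.44. Of 14 astrocyte genes, all tested, 12 were negative and 2 were lower at that p (median −0.15), with 10.74 to 11.06 and 10.92 to 11.02. The astrocyte median was −0.19 on chip 1 and −0.02 on chip 2. The 2 lower genes were *Gfap* (−0.25, standard error 0.07, unadjusted p = 0.00450 in limma) and *Aldoc* (−0.17, standard error 0.07, unadjusted p = 0.0386 in limma). On chip 1 and chip 2, *Gfap* differed by −0.23 and −0.27 and *Aldoc* by −0.23 and −0.11. The next astrocyte gene by p, *Sox9*, was higher (0.15, standard error 0.07, unadjusted p = 0.0505 in limma), with 0.18 on chip 1 and 0.12 on chip 2. The part of these cells in the values of the members was not tested.

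Macrophages of the brain borders express many of the same genes. Of 9 border macrophage markers 3 were tested (*Mrc1*, *Stab1* and *Cbr2*), with a median of 0.05 and mean signals of 6.69 to 7.05 in ethanol-exposed mice and 6.68 to 7.32 in controls, and the defining markers *Cd163*, *Lyve1* and *Pf4* were not detected on enough arrays. Of 16 blood cell genes 5 were tested, with a median of −0.02 and mean signals of 10.07 to 10.69 and 10.14 to 10.60. Of 12 hippocampal neuron genes 11 were tested, with a median of 0.08 and mean signals of 10.68 to 10.90 and 10.53 to 10.81.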

How the data were processed

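Hippocampal RNA, extracted with an RNeasy kit, was hybridised by the authors and read out with GenomeStudio 1.9.0 (submitters' processing notes). The deposited signal table gives, per probe and mouse, a linear intensity from which nothing was subtracted. A deposited detection p-value follows each intensity. The authors' other table, with quantile-normalized intensity, served as an alternative. Precision is set by the 6 arrays of each group.

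Intensities were background-corrected with limma 3.58.1 in R 4.3.3 (normexp, negative controls inferred from the detection p-values, offset 16), then quantile normalized and log2 transformed. The platform annotation names 1 gene for 34885 of 45281 probes, several for 18 and none for 10378. Gene identifiers recovered 34807 symbols, of which 0 had changed. The detection filter (p under 0.05 on 6 or more arrays) kept 19288 probes, 16727 with 1 symbol. These were fitted on group with empirical Bayes moderation, and p-values were adjusted over all of them (Benjamini-Hochberg). Exact permutation tests of single differences were two-sided and ran over 924 assignments. Chip entered as a block, as a contrast and in a product with group. Pairs of members used 100000 permutations, exact within groups or chips of 6, adjusted over 9 pairs. Scripts were tested on simulated data. The brightest tested probe stood for each gene where genes were counted.

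Members and gene lists were chosen with earlier results of these data known. Full values are given for members with an unadjusted p under 0.05 between groups or chips and for C1q, *C4b*, *Cx3cr1*, *Csf1r*, *P2ry12*, *Tmem119*, *Trem2*, *Tyrobp* and the 4 signals whatever their values. From each other list at most 4 genes with the smallest p were named, and *Spi1* was added for its motif after its values were seen. Alternatives were other background correction, scaling, detection filters, chip, replicate block, spread estimates, the authors' table and leaving out each mouse. Promoters are RefSeq's (GRCm38.p6), without the 50 bases after the start.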

Additional observations from a re-analysis of the deposited data

Results flagged for a closer look

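In 9 of 76 sets of 6 mice (38 probes in each group), 1 mouse lay far from the others by Dixon's criterion, of which chance gives about 1 in 20. In ethanol-exposed mouse 3, *C1qa* was low at 7.82 (next mouse 8.23), *Tgfb1* low at 4.87 (next 5.23) and *C4b* at ILMN_2632567 high at 5.90 (next 5.28). In the other ethanol-exposed mice, *Cd14* was low in mouse 2 at 5.95 (next 6.31), *Csf3r* high in mouse 6 at 6.25 (next 5.62) and *Laptm5* high in mouse 1 at 12.09 (next 11.94). In controls, *Ctss* was low in mouse 1 at 5.96 (next 6.64), *Tmem119* high in mouse 2 at 8.63 (next 8.01) and *Cx3cl1* low in mouse 3 at 12.13 (next 12.61). Without ethanol-exposed mouse 3 the unadjusted p of *Tgfb1* in limma stayed under 0.05.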

How the results depend on the processing

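In limma, 0 probes reached an adjusted p under 0.05 in any alternative that was run, while 1242 probes had an unadjusted p under 0.05. A fold above 1.5 with an unadjusted p of at most 0.05 was met by 25 probes, 0 of them of members. The median difference of the members stayed negative throughout, from −0.12 under median scaling, which moved the median of all tested probes from 0.0047 to −0.041, to −0.053 on probes detected on all 12 arrays, and from −0.097 to −0.029 when each mouse was left out. The count of lower member probes, 5 in the main fit, was 2 on chip 1 alone (*Tgfb1* and *Selplg* ILMN_2585233), where 1 was higher in place of 0. On chip 2 alone it was 4, so these were not all the same probes. The 4 were *Tgfb1*, *C1qc*, *Csf1r* ILMN_1230485 and *C4b* ILMN_2632567, which entered the test mainly through the controls. The count was 2 to 8 when each mouse was left out (2 without control mouse 2 or 4, 8 without control mouse 1). Among controls alone, 0 member probes differed between chips at an adjusted p under 0.05 in limma, in place of 1. The *Tgfb1* difference of −0.34 was −0.19 with an offset of 50 and −0.13 without background correction.

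Whether replicate numbers pair the mice cannot be told, because same-numbered mice also share a chip. Correlations of same-numbered deviations from group means ran from −0.018 to 0.21, and 2 of 6 were highest with their own number. With a replicate block 4 member probes were lower in place of 5. Of 38 probes, 35 kept their side of 0.05, 1 went below it and 2 rose above it in limma (*Fcrls* ILMN_2770968, unadjusted p = 0.0523, and *Siglech* ILMN_1239190, unadjusted p = 0.0507).

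Among the differences that changed sign were those of *Csf1r* ILMN_1230485 (−0.23 over both chips) and *Gpr34* ILMN_1237817 (0.23). On chip 1 alone the values with a changed sign were *Csf1r* ILMN_1230485 0.016, *Csf3r* −0.031, *Ctss* −0.098, *Cx3cr1* 0.0068, *Fcer1g* 0.026, *Laptm5* 0.12, *Mpeg1* −0.052 and *Tmem119* −0.0046. On chip 2 alone they were *Aif1* ILMN_2804487 0.039, *Csf1* 0.036, *Gpr34* ILMN_1237817 −0.029, *Gpr34* ILMN_2742840 −0.059, *Ly86* −0.0019 and *Selplg* ILMN_2820893 0.021. Under median scaling they were *Ctss* −0.040, *Ly86* −0.035, *Mpeg1* −0.052, *P2ry13* −0.031 and *Tmem119* −0.041. With each mouse left out in turn the differences ran from −0.076 to 0.041 at *Aif1* ILMN_2804487, −0.22 to 0.015 at *Cd53*, −0.10 to 0.025 at *Csf1*, −0.065 to 0.092 at *Csf3r*, −0.12 to 0.11 at *Ctss*, −0.0087 to 0.11 at *Cx3cl1*, −0.090 to 0.0042 at *Cx3cr1*, −0.089 to 0.00021 at *Fcer1g*, −0.0098 to 0.15 at *Gpr34* ILMN_2742840, −0.098 to 0.034 at *Laptm5*, −0.040 to 0.055 at *Ly86*, −0.059 to 0.061 at *Mpeg1*, −0.054 to 0.24 at *P2ry12*, −0.045 to 0.076 at *P2ry13* and −0.026 to 0.13 at *Tmem119*. The cause of these changes was not tested. *Tgfb1*, *C4b* ILMN_2632567, *Tlr2* and *Csf3r*, with median raw signals of 118.45 to 129.7, lay near the median signal of the arrays.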
